A study of Mus musculus with 12 samples.

Results

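The data are the H3K36ac peaks of spermatogonia that lack Sirt7. Of 8740 peaks in the 6 lists of the study, 7476 were in the 3 Sirt7-/- lists, with 2840 in replicate 2, 2045 in replicate 3 and 2591 in replicate 4. Testes of Sirt7-/- mice of the 129S1/Sv background were taken at postnatal day 5 (Pnd 5), and their cells were enriched for spermatogonia by enzymatic digestion and differential plating, so that other testis cells may remain. Each sample of 50000 cells came from its own mouse and was fixed, sheared and immunoprecipitated with an anti-H3K36ac antibody in the presence of spike-in nucleosomes. The authors called broad peaks for each sample against the input of that sample. The other 3 lists came from WT spermatogonia of the same age and background and were not compared here. Libraries with the same replicate number in ChIP and input belong together, and no treatment was given.

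H3K36ac is the acetyl group on lysine 36 of histone H3. The same lysine can instead carry methyl groups, and a lysine holds either acetylation or methylation at a time. H3K36ac is known as a mark of the start of active genes, whereas H3K36me3 lies over their bodies. SIRT7 is a sirtuin, an NAD-dependent enzyme that removes acetyl and other acyl groups, and it is best known from the nucleolus and from chromatin. At Pnd 5 the mouse testis cords hold spermatogonia, which include the stem cells of the germ line, and Sertoli cells.

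A peak list gives positions, the fold of ChIP over input (a ratio), and the -log10 of q, the false discovery rate of the peak. A rank of 1 is the best -log10 q of a list. Such a list holds no read coverage, and a gene without a peak may still carry the mark. Replicate 3 had the shortest list and, by the read counts the study states, the fewest clean reads of the 3. The deletion itself cannot be checked in these lists, and the start of Sirt7 had no peak in any of them.

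The best peak of each Sirt7-/- list was the same region, chr13:48545399-48546526 (mm10). It ranked 1 in replicate 2, 1 in replicate 3 and 1 in replicate 4. The fold was 7.74, 9.05 and 8.39 in replicates 2, 3 and 4, and the -log10 q was 12.08, 12.86 and 13.42. The peak was 460 bp wide in replicate 2, 428 bp in replicate 3 and 1094 bp in replicate 4. No gene start lay within 3000 bp of it. On the minus strand it lay 7127 bp before the hairpin of Mirlet7a-1, 7482 bp before Mirlet7f-1 and 9285 bp before Mirlet7d. The let-7 miRNAs repress mRNAs that match their seed, bases 2 to 8, and LIN28, a protein of undifferentiated spermatogonia, is known to block their maturation.

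Those let-7 hairpins lay outside the window of 3000 bp, within which 30 of 1188 miRNA genes (2.53%) had a peak in all 3 lists. Mirlet7i (chr10:122985640-122985724) had the peak over its hairpin, with ranks of 1541, 460 and 454. The 6 hairpins of the miR-17-92 cluster, a cluster known to be active in spermatogonia, shared 1 region, chr14:115040417-115041865, which lay 1806 bp before Mir17 and 2562 bp before Mir92-1. That region ranked 1370, 355 and 1815, with folds of 4.18, 5.6 and 3.92. It was a middle to late peak in replicates 2 and 4 and an early one in replicate 3. These miRNA genes were chosen after their peaks were seen.

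The mature sequences are shown because the seed groups these miRNAs into families. Sequences are from RefSeq on GRCm38.p6 (the assembly behind mm10), read 5′ to 3′ with the seed in capitals.
let-7a-5p: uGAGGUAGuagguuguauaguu
let-7f-5p: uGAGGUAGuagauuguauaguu
let-7d-5p: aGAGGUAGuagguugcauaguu
let-7i-5p: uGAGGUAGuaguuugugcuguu
miR-17-5p: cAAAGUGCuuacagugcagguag
miR-20a-5p: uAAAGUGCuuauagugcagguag
miR-18a-5p: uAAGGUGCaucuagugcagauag
miR-19a-3p: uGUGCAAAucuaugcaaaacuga
miR-19b-3p: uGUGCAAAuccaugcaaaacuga
miR-92a-3p: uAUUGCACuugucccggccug
The 4 let-7 members, from chromosomes 13 and 10, had the same seed. In the miR-17-92 cluster, miR-17 and miR-20a shared a seed, miR-19a and miR-19b shared another, and miR-18a and miR-92a each had their own.

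Among gene starts, the best recurrent H3K36ac region covered Nup85, which encodes a scaffold subunit of the nuclear pore. Its peak ranked 12, 3 and 25 in replicates 2, 3 and 4, with folds of 5.69, 7.82 and 6.63. It was narrow, at 244, 290 and 330 bp, and ran from -207, -234 and -267 bp to 36, 55 and 62 bp of the start, where negative positions lie before it. Smndc1, a splicing factor of the survival motor neuron domain family, followed with ranks of 3, 17 and 32 and folds of 7.83, 7.62 and 6.05. Hadha and Hadhb, the subunits of the mitochondrial trifunctional protein of fatty acid oxidation, are divergent genes with 1 region between them, which ranked 73, 5 and 22. Dhx15, a helicase that takes spliceosomes apart, ranked 26, 4 and 88.

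The next places went to Hspa9, the mitochondrial HSP70 chaperone, with ranks of 80, 21 and 41, and to Brpf3, a scaffold of histone acetyltransferase complexes, with 29, 14 and 140. Cactin, a spliceosome-associated protein, was second in replicate 2 and ranked 144 in replicate 3 and 47 in replicate 4. Sar1a, a GTPase of COPII vesicles, shared its region with the noncoding gene 1700022H01Rik and ranked 19, 138 and 46. Ppp2r2a, a regulatory subunit of protein phosphatase 2A, ranked 149, 39 and 36. Hnrnpl, a splicing regulator, ranked 34, 169 and 34, with a peak that began 2389 to 2419 bp after the start in the gene table. The last places were those of the noncoding gene 4930456A14Rik, next to Atxn2l, with ranks of 140, 79 and 19, and of Sfpq, an RNA-binding protein of paraspeckles, with 96, 78 and 67. The 3 ranks of Sfpq lay close together, and those of Cactin far apart. Of these 12 regions, 8 were also among the first 12 when regions were ranked by fold.

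**Figure D1:**
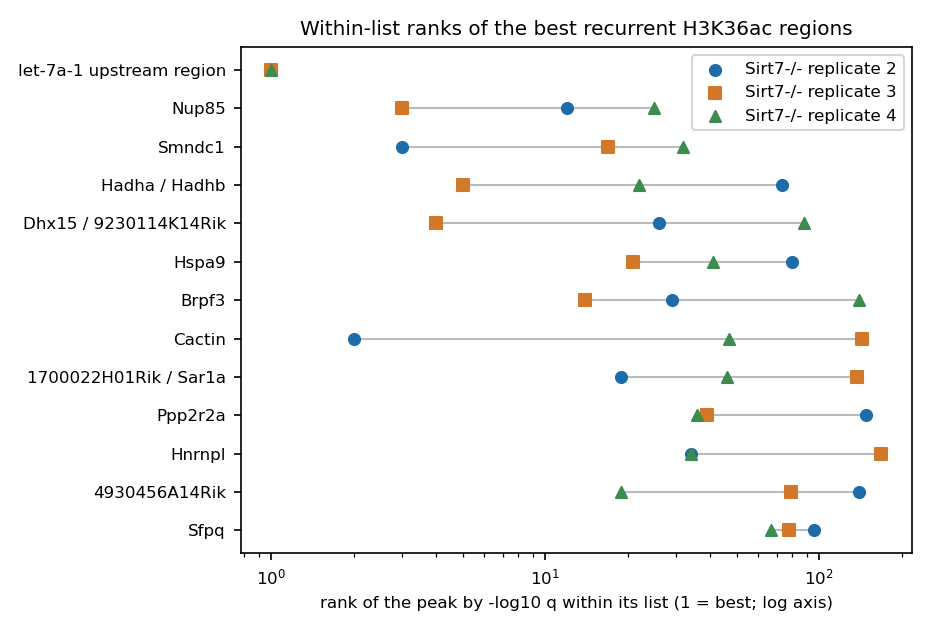
Rank of the peak by -log10 q within each Sirt7-/- list (log axis, 1 is the best) for the let-7 region and the 12 best recurrent regions at gene starts, with a point for each replicate and a line from the lowest to the highest rank. The let-7 region has its 3 points on top of each other at rank 1, Sfpq lies between 67 and 96, and Cactin between 2 and 144.

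Promoters of 5 of these genes are shown because their peaks led the lists and because they differ in the short motifs they hold. Each runs from 250 bases before to 50 bases after a transcript start (RefSeq, GRCm38.p6), written 5′ to 3′ on the strand of the gene, and capitals mark any of the 9 motifs searched on both strands. These windows are set by the start and need not hold the peak. The Dhx15 peaks ended at 52190443, 52190474 and 52190473 in replicates 2, 3 and 4, outside the sequence shown. The Sar1a peaks began at 61680315, 61680333 and 61680315, close to the end of its sequence.
Smndc1, chr19:53390585-53390884, minus strand: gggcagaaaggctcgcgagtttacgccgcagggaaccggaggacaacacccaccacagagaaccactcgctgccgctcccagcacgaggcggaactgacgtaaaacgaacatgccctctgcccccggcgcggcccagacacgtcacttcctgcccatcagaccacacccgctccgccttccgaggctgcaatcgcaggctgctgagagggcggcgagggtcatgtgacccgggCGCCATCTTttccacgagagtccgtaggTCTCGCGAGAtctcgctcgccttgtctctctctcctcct
Hadha, chr5:30154931-30155230, minus strand: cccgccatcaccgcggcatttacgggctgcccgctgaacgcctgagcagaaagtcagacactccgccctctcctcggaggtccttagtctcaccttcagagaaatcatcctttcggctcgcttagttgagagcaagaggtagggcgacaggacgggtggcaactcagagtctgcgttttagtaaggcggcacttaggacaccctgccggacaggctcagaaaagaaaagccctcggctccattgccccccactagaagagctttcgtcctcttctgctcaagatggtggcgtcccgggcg
Dhx15, chr5:52190497-52190796, minus strand: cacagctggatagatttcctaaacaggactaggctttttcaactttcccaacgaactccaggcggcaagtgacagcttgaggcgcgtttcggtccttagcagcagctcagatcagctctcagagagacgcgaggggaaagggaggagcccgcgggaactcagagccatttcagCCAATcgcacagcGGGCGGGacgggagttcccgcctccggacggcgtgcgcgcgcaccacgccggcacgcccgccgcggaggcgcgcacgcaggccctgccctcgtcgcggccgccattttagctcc
Brpf3, chr17:28800876-28801175, plus strand: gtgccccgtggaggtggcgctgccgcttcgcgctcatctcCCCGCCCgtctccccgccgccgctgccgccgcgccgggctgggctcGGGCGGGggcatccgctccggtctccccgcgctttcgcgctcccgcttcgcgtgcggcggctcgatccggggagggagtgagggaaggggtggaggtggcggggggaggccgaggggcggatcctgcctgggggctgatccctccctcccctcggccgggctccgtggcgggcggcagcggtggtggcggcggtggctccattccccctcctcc
Sar1a, chr10:61680035-61680334, plus strand: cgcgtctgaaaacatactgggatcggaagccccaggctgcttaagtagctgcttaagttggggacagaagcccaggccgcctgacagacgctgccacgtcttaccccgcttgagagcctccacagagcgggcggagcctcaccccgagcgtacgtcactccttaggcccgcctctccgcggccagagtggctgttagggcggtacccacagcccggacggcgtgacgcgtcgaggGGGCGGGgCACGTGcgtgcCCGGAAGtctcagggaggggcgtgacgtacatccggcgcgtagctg
Smndc1 held a YY1 core and a ZBTB33-like motif on each strand, overlapping in 1 palindrome, Dhx15 an NFY and an SP/KLF motif, Brpf3 SP/KLF motifs, Sar1a an ETS motif, an E-box and an SP/KLF motif, and Hadha none of the 9. They were rich in CG pairs, at 29 in Smndc1, 20 in Hadha, 33 in Dhx15, 40 in Brpf3 and 31 in Sar1a per 300 bases.

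Across the 3 lists, 88.9% ± 2.06 (SD, n = 3) of the peaks lay within 3000 bp of a gene start, at 89.2% in replicate 2, 90.9% in replicate 3 and 86.8% in replicate 4. The lists were alike in peak width, with medians of 480, 456 and 465 bp, and they covered 1678, 1132 and 1524 kb. The median fold was 4.05, 4.68 and 4.07, and the highest 7.83, 9.05 and 8.39. At least 1 list had a peak at 4136 of 21468 protein-coding starts (19.3%). At least 2 lists did so at 2214 (10.3%), and all 3 lists at 1093 (5.09%). Of noncoding genes, 165 of 11381 lncRNA starts (1.45%) were called in all 3 lists.

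Merging overlapping peaks of the 3 lists gave 4355 regions, of which 2267 (52.1%) came from 1 list, 1063 (24.4%) from 2 and 1025 (23.5%) from all 3. Recurrence depended on rank. In the best 10% of each list by -log10 q, 75%, 74.0% and 74.5% of the peaks in replicates 2, 3 and 4 overlapped a peak in both other lists. In the last 10% the shares were 8.10%, 34.6% and 18.1%. The best peaks recurred in similar shares in the 3 lists, and late peaks recurred most in replicate 3, the shortest list. Within the regions shared by 2 lists, the order of -log10 q was only loosely kept, with Spearman's rho of 0.30 between replicates 2 and 3 (1357 regions), 0.31 between 2 and 4 (1507) and 0.30 between 3 and 4 (1274). The points of these correlations share libraries and are given as a description.

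**Figure D2:**
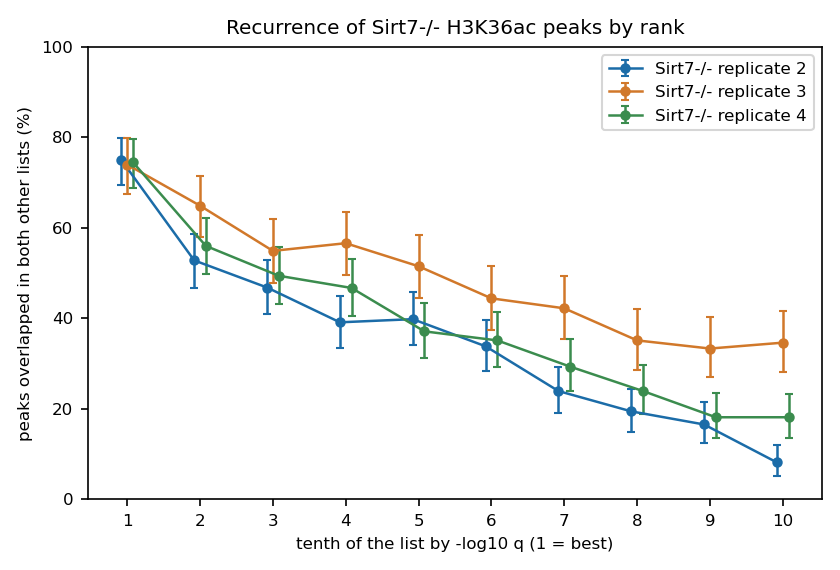
Share of the peaks of each Sirt7-/- list that overlap a peak in both other lists (y axis, percent), in steps of 10% of the list ranked by -log10 q (x axis, 1 is the best), with exact 95% binomial intervals that cover counting error only. All 3 lists start between 74.0% and 75%, and replicate 2 falls to 8.10%.

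Single lists also held strong peaks. In replicate 2 the best peaks without overlap elsewhere were at Psmb7, a proteasome subunit, with rank 51 and fold 6.18, and at Smarcc1, a subunit of the BAF remodeler, with rank 99 and fold 5.54. In replicate 3 such a peak was at BC003965, with rank 18 and fold 7.64. In replicate 4 they were at Zfp869, with rank 65 and fold 6.10, and at Uqcrfs1, the Rieske protein of respiratory complex III, with rank 84 and fold 5.93. Other peaks were shared but led in a single list, such as Ddx6, an RNA helicase of mRNA decay, with ranks of 538, 155 and 2.

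At the 1093 coding starts called in all 3 lists, the peak lay mostly after the start. The median peak ran from 29 to 622 bp after it in replicate 2, from 60 to 567 bp in replicate 3 and from 69 to 631 bp in replicate 4. The most covered point was 250 bp after the start in replicates 2 and 3, in 63.9% and 58.9% of the genes, and 300 bp after it in replicate 4, in 62.7%. The start itself was covered in 38.2%, 33.1% and 33.2%. The start of a gene here is its 5′ end in the RefSeq gene table, and other transcript starts can lie elsewhere.

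**Figure D3:**
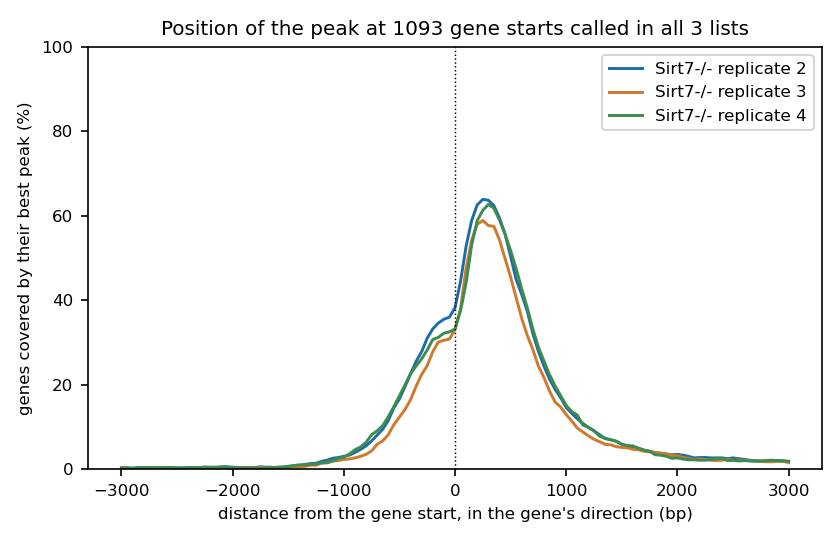
Share of the 1093 protein-coding genes called in all 3 lists (y axis, percent) whose best peak covers a point at the given distance from the gene start (x axis, bp, in the direction of the gene), with a line for each Sirt7-/- replicate. The 3 lines lie close together, stand between 33.1% and 38.2% at the start and peak 250 to 300 bp after it.

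RNA-binding proteins were the functional list with the highest recurrence. Like all functional lists, it was drawn up with earlier results of these data known, so its share is a description only. Of 44 hnRNP and other RNA-binding protein genes, 23 (52.3%, exact 95% interval 36.7% to 67.5%, counting error only) were called in all 3 lists, 7 in 2 and 6 in 1, against 5.09% of all coding starts in all 3 lists. Hnrnpu, a nuclear scaffold protein, ranked 56, 43 and 199, and Rbm39, a splicing coactivator, ranked 74, 41 and 186. Hnrnpr ranked 61, 224 and 151. Tardbp, an RNA-binding protein known from amyotrophic lateral sclerosis, ranked 24, 32 and 520. Ranks in this group could differ widely, since Hnrnpd, an AU-rich element binding protein, ranked 16 and 17 in replicates 2 and 4 but 1654 in replicate 3. The 23 genes had 23 separate regions. The 8 members without a peak included Hnrnpf, Ilf2, Pabpc4, Rbm10, Rbm3, Rbmx and Taf15. Members of the list reached the best 10% of replicates 2, 3 and 4 with 15, 8 and 11 peaks.

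Other steps of gene expression were called in all 3 lists at lower shares, though above the 5.09% of all coding starts. Here and below, all coding starts include families that are silent in most tissues. CG content of promoters was not matched in these comparisons. In the spliceosome and SR protein list, 12 of 70 genes (17.1%) were in all 3 lists, 16 in 2 and 15 in 1. Srsf4 ranked 10, 89 and 301, Srsf6 ranked 218, 292 and 3, and Srsf5 ranked 665, 7 and 146, so that different SR genes led in different lists. U2af1, which reads the 3′ splice site, ranked 95, 1008 and 252. In the nuclear pore and transport list 12 of 49 (24.5%) were in all 3, among them Nup205, an inner ring subunit, with ranks of 13, 296 and 7, and Xpo1, the main export receptor. For translation initiation and elongation factors the count was 11 of 59 (18.6%). Eif5, the GTPase activator of initiation, ranked 84, 187 and 29, and Eif4e, which binds the mRNA cap, 623, 506 and 257.

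Cytosolic ribosomal protein genes had a peak in at least 1 list in 55.8% and in all 3 in 13 of 86 (15.1%), beside 19.3% and 5.09% of all coding starts. With a -log10 q of at least 2 the 13 became 6. Rpl35a was the best ranked of them, with ranks of 239, 188 and 248. In all 3 lists, mitochondrial ribosomal proteins were near the share of all starts, at 5 of 80 (6.25%), and so were the Pol II, Mediator and general factor genes, at 5 of 86 (5.81%), and the Pol I, Pol III and ribosome biogenesis genes, at 4 of 78 (5.13%). In at least 1 list these groups stood at 37.5%, 45.3% and 38.5%, above the 19.3% of all coding starts. For the aminoacyl-tRNA synthetases the count was 6 of 36 (16.7%), led by Farsb, a subunit of the phenylalanine enzyme, with ranks of 252, 20 and 85.

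Methyltransferases of H3K36 were among the genes with recurrent peaks. Of 14 H3K36 methylation writers and erasers, 4 (28.6%, 8.39% to 58.1%, beside 5.09% of all coding starts) were called in all 3 lists: Nsd1, Nsd2, Setd2 and Ash1l. The count was 1 with a -log10 q of at least 2 and 2 with equal list lengths. Setd2, the enzyme of H3K36me3, ranked 9 in replicate 2 and 85 in replicate 3 but 2533 in replicate 4, where its fold was 3.31 against 6.91 and 6.40. Nsd2 ranked 656, 1555 and 293. Ash1l shares its region with Dap3, a mitochondrial ribosomal protein gene, and ranked 343, 1276 and 2313. Kdm2a, an H3K36 demethylase, Nsd3 and Setd3 were called in 2 lists.

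Of 20 histone acetyltransferase and BRPF genes, 5 (25%, beside 5.09% of all coding starts) were called in all 3 lists. Besides Brpf3 they were Kat5, the catalytic subunit of the TIP60 complex, with ranks of 174, 264 and 170, Ep300 with 62, 83 and 546, Kat7 with 1976, 664 and 1268, and Crebbp with 1462, 646 and 2388. Kat2a and Kat2b, the GCN5 family enzymes known for acetylating H3, had no peak in the 3 lists. On the deacetylase side, 8 of 37 sirtuin, HDAC and corepressor genes (21.6%, beside the same 5.09%) were in all 3 lists. Tbl1xr1, a corepressor exchange factor, led with ranks of 221, 13 and 28. Among the sirtuins, Sirt4 ranked 208, 252 and 680, though its peak in replicate 4 was another one, from -2253 to -1933 bp of the start, and Sirt6 ranked 1933, 1661 and 1781. Sirt1 had peaks in replicates 3 and 4 only. Of Polycomb and trithorax genes, 8 of 32 (25%) were in all 3 lists. They included Setd1a and Kmt2c, which methylate H3K4, and Ring1 and Rnf2, the ubiquitin ligases of PRC1. With a -log10 q of at least 2, the counts of 5, 8 and 8 became 3, 5 and 4. The share of all coding starts was then 2.84%.

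Protein turnover and folding followed, beside 5.09% of all coding starts in all 3 lists. Ubiquitin conjugation and deubiquitination genes were in all 3 lists in 22 of 113 (19.5%), with Ube2d3, a widely used conjugating enzyme, at ranks 71, 239 and 175. In the SUMO list the count was 3 of 17 (17.6%), among them Pias2, a SUMO ligase, and Sumo2, a modifier. The Sumo2 peak was strong in replicate 3 only, with fold 6.28 and rank 120, against folds of 3.30 and 3.69 and ranks of 2327 and 1727 in replicates 2 and 4. Of 43 proteasome subunits, 44.2% were called in at least 1 list, beside 19.3% of all coding starts, and Psmd11 alone (2.33%, 0.0589% to 12.3%) in all 3. Chaperones were called in all 3 lists in 14 of 86 (16.3%), where Hspd1 and Hspe1, the mitochondrial chaperonin pair, shared 1 region.

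Organelle and metabolic lists ranged from 16.3% to 3.85%. Of 49 vacuolar ATPase, lysosome and autophagy genes, 8 (16.3%) were called in all 3 lists, with Lamp1, a lysosomal membrane protein, at ranks 76, 339 and 138 and Atp6v0c, a proton channel subunit, at 672, 69 and 10. Mitochondrial import genes were in all 3 lists in 4 of 30 (13.3%, beside 5.09% of all coding starts), with 3 separate regions, and the count was 0 with a -log10 q of at least 2 and 1 with equal list lengths. Tomm70a, an outer membrane receptor, ranked 2094, 419 and 399. For Rab, Arf, COPI and COPII traffic the count was 12 of 91 (13.2%), with Rab5a, the GTPase of early endosomes, at 480, 547 and 276 behind Sar1a. Respiratory chain and ATP synthase genes reached 8 of 80 (10%), and glycolysis and TCA cycle genes 2 of 34 (5.88%). In cholesterol synthesis only Srebf2, its main transcription factor, was in all 3 (1 of 26, 3.85%), with ranks of 497, 1401 and 234.

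Of the cell cycle and chromosome structure lists, cyclins, CDKs and the anaphase-promoting complex had 6 of 57 genes (10.5%) in all 3 lists. All coding starts stood at 5.09%. Cdk12, a kinase of the Pol II tail, led this group with ranks of 60, 246 and 179. Cohesin, condensin and CTCF genes had 5 of 28 (17.9%), with the cohesin subunit Smc3 at 382, 1560 and 171. Of 14 DNA methylation genes and readers, Mbd3 and Tet3 were in all 3 lists (14.3%). With a -log10 q of at least 2, the counts of these groups were 4, 2 and 1.

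Genome maintenance genes were nearer to the share of all coding starts in all 3 lists, 5.09%. In at least 1 list, DNA damage response and repair genes stood at 34.7%, replication genes at 28.3% and histone genes at 9.86%. The share of all coding starts there was 19.3%. Of 72 DNA damage response and repair genes, 5 (6.94%, 2.29% to 15.5%) were called in all 3 lists: Mdm2, the ligase of p53, with ranks of 55, 281 and 1242, Rad23b with 283, 813 and 551, Rad17 with 70, 242 and 1610, Rad21 and Fancm. Rad17 and Taf9, a TFIID subunit, are divergent and share that region. Brca1, Ercc6, Lig3, Mre11a, Nbn and Xpc were in 2 lists, and Trp53, H2ax and Rad50 in 1. In the replication list only Orc6, of the origin recognition complex, was in all 3 (1 of 46, 2.17%), with ranks of 173, 1225 and 223. Of 71 histone genes, 2 were in all 3 lists, and both were replication-independent genes: H3f3a, which encodes H3.3, with ranks of 272, 316 and 114, and H1f0 with 237, 1107 and 130. Clustered histone genes are near-identical copies, and since only uniquely mapped reads were kept, the lack of a call there is uncertain.

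**Figure D4:**
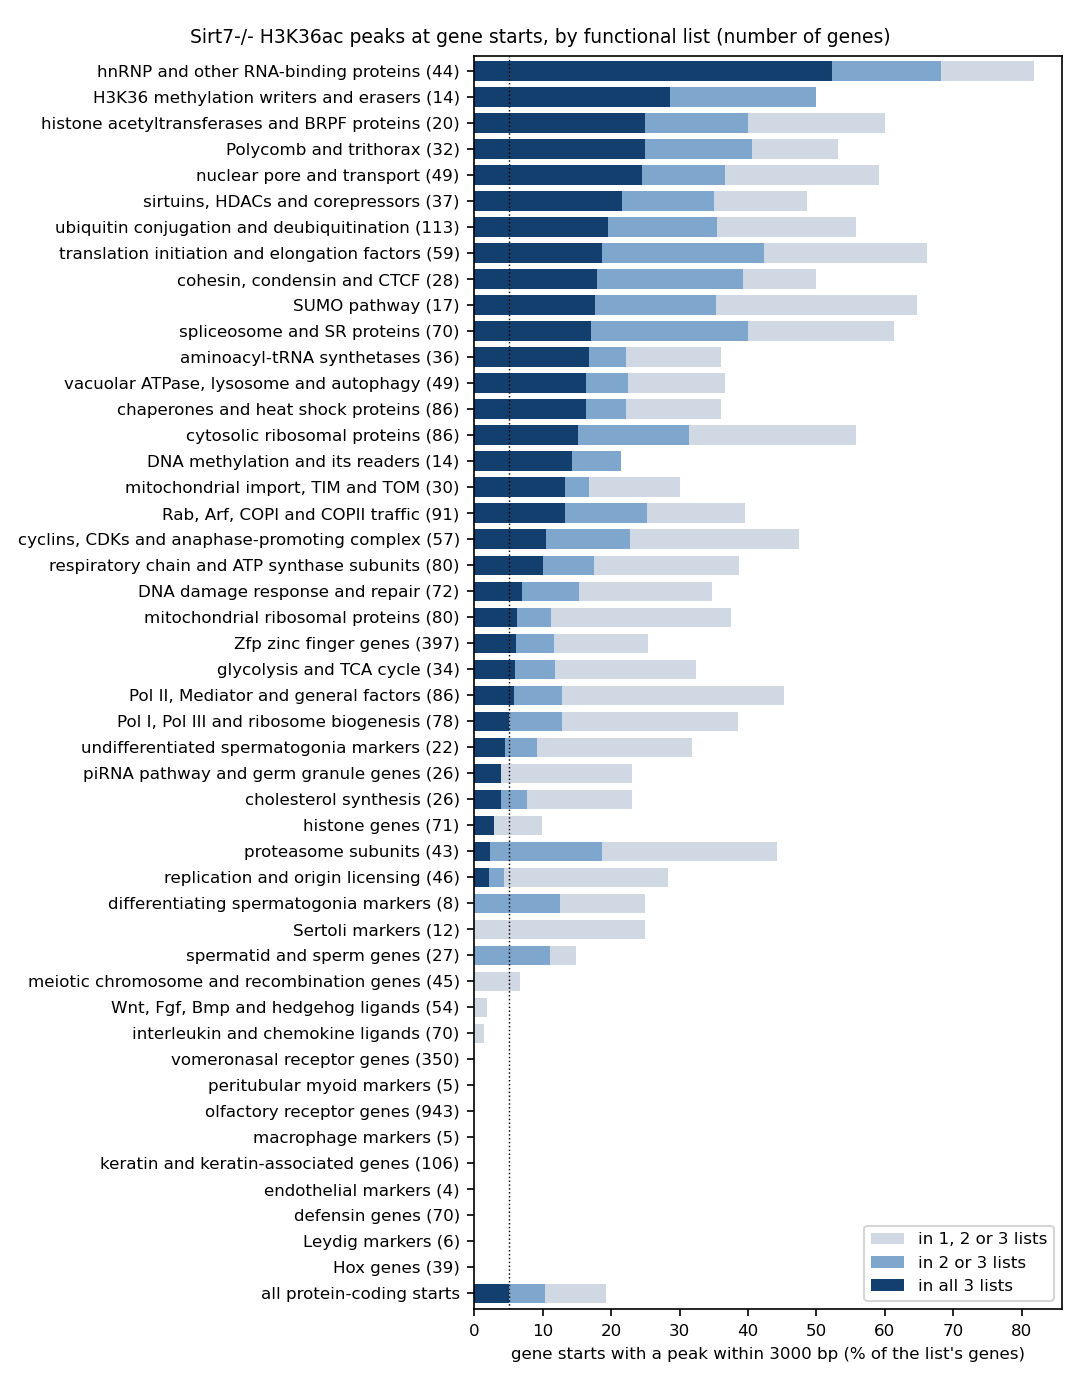
Share of the genes of each functional list (number of genes in brackets) with a Sirt7-/- H3K36ac peak within 3000 bp of the start (x axis, percent), in at least 1 list (pale), in at least 2 (mid blue) and in all 3 (dark). The dotted line and the lowest bar give all protein-coding starts (5.09% in all 3 lists), and hnRNP and other RNA-binding proteins reach 52.3%. The lists were chosen with earlier results of these data known.

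Markers of undifferentiated spermatogonia were called in all 3 lists at about the share of all coding starts. Of 22 markers of undifferentiated spermatogonia, 7 (31.8%) had a peak in at least 1 list, beside 19.3% of all coding starts, and only Itga6, a laminin receptor of the stem cells, was called in all 3 lists (4.55%, 0.115% to 22.8%, beside 5.09% of all coding starts), with ranks of 895, 1692 and 2513. With a -log10 q of at least 2, or with equal list lengths, the count was 0. Foxo1 was in replicates 2 and 3. Zbtb16, which encodes PLZF, was in replicate 2 only, with fold 4.06 and rank 1621. Gfra1, the GDNF receptor, and Uchl1 were in replicate 2 only, and Dazl and Etv5 in replicate 4 only. Of 8 markers of differentiating spermatogonia, Dmrt1 was in replicates 2 and 4 and Ccnd2 in replicate 3. No marker peak lay in the best 10% of a list.

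Of 12 Sertoli markers, 3 (25%) were called in 1 list each, beside 19.3% of all coding starts in at least 1 list, and 0 in all 3, which allows a share of up to 26.5%. The 3 were Sox9 in replicate 3 (rank 516, fold 5.32), Kitl in replicate 2 (rank 2032, fold 3.90) and Dhh in replicate 4 (rank 1312, fold 4.1). None of 6 Leydig, 5 peritubular myoid, 4 endothelial and 5 macrophage markers had a peak. Peaks at Sertoli markers may be of any cell in the sample, and their part in the results was not tested. Of 45 meiotic chromosome and recombination genes, 3 (6.67%) had a peak in 1 list, beside 19.3% of all coding starts in at least 1 list. In all 3 lists there were 0, which allows a share of up to 7.87% (exact 95% interval), above the 5.09% of all coding starts. Of 27 spermatid and sperm genes, 14.8% had a peak in at least 1 list, and Crem, Odf2 and Tnp2 were in 2 lists. Of 26 piRNA pathway and germ granule genes, 23.1% had a peak in at least 1 list. Tdrd3 was the 1 in all 3 lists (3.85%, 0.0973% to 19.6%), near the 5.09% of all coding starts. Peak lists alone could not settle the cell type of the samples.

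Gene families that are silent in most tissues had no recurrent peak. None of 943 olfactory receptor, 350 vomeronasal receptor, 106 keratin and 70 defensin genes had a peak in any list, and for the olfactory receptors 0 of 943 allows a share of up to 0.390%. Hox genes, 39 in all, were also without a peak. Of 70 interleukin and chemokine ligands Ccl25 had a peak in replicate 2, and of 54 Wnt, Fgf, Bmp and hedgehog ligands only Dhh had one, in replicate 4. Vomeronasal and defensin genes lie in clusters of near-identical copies, to which the limit on unique reads applies as well. KRAB and other zinc finger genes of the Zfp series were near the share of all starts, at 24 of 397 (6.05%) in all 3 lists, led by Zfp644 with ranks of 8, 38 and 302.

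The widest regions were a different set of genes from the best ranked ones. Within the lists, width and -log10 q were almost unrelated, with Spearman's rho of 0.13, 0.03 and 0.09 in replicates 2, 3 and 4, while fold and -log10 q had rho of 0.94, 0.96 and 0.93. The widest merged region, 3354 bp (chr13:55209646-55212999), lay at Nsd1, a methyltransferase of H3K36me2. Its peak was 3254 bp wide in replicate 2, 301 bp in replicate 3 and 1925 bp in replicate 4, with ranks of 889, 1267 and 379. Next were the merged regions at Nfil3, a bZIP repressor, of 3271 bp, and at the noncoding paraspeckle gene Neat1, of 3231 bp. Brd2, a BET reader of acetylated histones, followed at 3026 bp. The Nfil3 peak was 408, 1264 and 3271 bp wide in replicates 2, 3 and 4. Neat1 was called in replicates 2 and 4 only, with peaks of 252 and 3231 bp. Brd2, which faces H2-DMa, was the only one of these with a wide peak in every list, at 2873, 3011 and 2726 bp and ranks of 166, 91 and 285.

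Hivep2, Dusp6, Igf1r and Klf13 completed the 8 widest. The Hivep2 region was 2893 bp wide and was called in all 3 lists, but the peak lay 2939 bp after the gene start in replicate 4, just inside the 3000 bp window, and outside it in the others. Dusp6, a phosphatase of ERK, had a peak of 2852 bp in replicate 2 and of 360 bp in replicate 3. Igf1r, the receptor of IGF1, was called in replicates 2 and 3. Klf13 had peaks of 2383, 1566 and 2763 bp. When regions in all 3 lists were ordered by the narrowest of their 3 peaks, 3 of these 8 stayed among the first 8, which then also held a region with no gene start within 3000 bp (chr11:69408939-69411675, narrowest peak 2390 bp), Mex3c with 2155, 2362 and 2014 bp, Zc3h4 with 1912, 1976 and 1948 bp, Kmt2e with 2042, 2160 and 1884 bp, and Arid2 with 1578, 1602 and 2348 bp. Kmt2e is a trithorax-like protein and Arid2 a subunit of the PBAF remodeler.

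Single starts per gene missed some strong regions. Of the 1025 regions in all 3 lists, 82 had no gene start within 3000 bp, of which 57 had another transcript start of the RefSeq promoter table in that window and 6 lay outside any gene. The best after the let-7 region were at transcript starts of Slc39a10, a zinc importer, with ranks of 288, 2 and 75, of Gabpb1, a subunit of the ETS factor GABP, with 156, 47 and 261, of Cops3, of the COP9 signalosome, with 57, 553 and 164, and of Tnrc6a, which acts with Argonaute in miRNA silencing, with 4, 745 and 35. A region inside Btbd9 with no listed start nearby ranked 153, 106 and 576. With transcript starts added to gene starts, 1170 coding genes (5.45%) were called in all 3 lists in place of 1093.

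Autosomes carried nearly all calls. Of 20260 autosomal coding starts, 1092 (5.39%, 5.08% to 5.71%) were called in all 3 lists, and the shares ran from 3.34% on chromosome 14 to 7.95% on chromosome 12. On the X chromosome the only such gene was Zrsr2, a factor of the minor spliceosome, 1 of 955 (0.105%, 0.00265% to 0.582%), with ranks of 811, 258 and 1014. In at least 1 list, 27 X-linked starts (2.83%) were called, against 20.3% of autosomal starts. None of 253 starts on the Y chromosome had a peak. X and Y are present in 1 copy in male cells, unlike autosomes, and differences in read number between chromosomes were not tested. Only uniquely mapped reads were kept, and how far this limits calls on X and Y was not tested either.

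Promoter sequence differed with recurrence. Among 17492 coding genes with a promoter of 300 bases in the RefSeq table, the median number of CG pairs was 9 with no peak, 24 with a peak in 1 list, 26 in 2 and 29.0 in all 3 (913 genes). The median GC content was 54%, 62.7%, 64.7% and 66.7% in the same order. A TATA motif (TATAAA, either strand) was held by 15.2% of promoters with no peak and by 4.82% (3.52% to 6.42%) of those in all 3 lists, beside 13.3% of all promoters.

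A ZBTB33-like motif (TCTCGCGA, either strand) went from 0.655% (0.528% to 0.802%) with no peak to 4.14% in 1 list, 4.73% in 2 and 7.12% (5.54% to 8.98%) in all 3, beside 1.53% of all promoters. The intervals of neighbouring classes with a peak overlapped. The YY1 core (AAGATGGCG) was at 1.16% with no peak and at 4.89%, 4.83% and 5.37% in 1, 2 and 3 lists, beside 1.92% of all. The ETS motif (CCGGAAG) was at 9.77%, 22.1%, 19.8% and 19.2%, beside 11.9% of all, and the SP/KLF motif (GGGCGGG) at 29.0%, 53.2%, 56.1% and 54.8%, beside 34%. The NFY motif (CCAAT) was at 40.5% with no peak and 30.7% in all 3 lists, beside 39.2%. NRF1 (GCGCATGC), CRE (TGACGTCA) and E-box (CACGTG) motifs were at 5.91%, 3.83% and 12.8% in all 3 lists, beside 3.61%, 2.33% and 7.91% of all promoters. All were searched on both strands, and no motif contains another.

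Within promoters of at least 20 CG pairs, a limit chosen after the medians were seen, the SP/KLF share was even across classes, at 62.4% with no peak and 63.3% in all 3 lists. The ZBTB33-like share was 1.70% (1.32% to 2.16%) with no peak and 7.86% (6.01% to 10.1%) in all 3 lists, and the YY1 share 2.2% and 5.24%. The NFY share was 37.7% (36.1% to 39.2%) and 29.5% (26.2% to 33.0%). The limit did not make CG content equal, with medians of 26 CG pairs with no peak and 32 in all 3 lists. The ZBTB33-like motif itself holds CG pairs, and the part of CG content in its contrast was not tested. The TATA share was 3.82% (3.24% to 4.48%) and 3.17% (2.02% to 4.72%), the ETS share 19% and 19.9%, and the NRF1 share 5.94% and 5.79%, so that the contrasts of these motifs between no peak and all 3 lists were not seen within CG-rich promoters. The classes between did differ for ETS, at 25.1% (22.5% to 27.8%) in 1 list and 22.5% in 2, beside 17.8% to 20.3% as the interval with no peak. The NRF1 share was 7.84% in 1 list and 8.50% in 2. A match of letters is a description and no evidence that a factor binds there.

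**Figure D5:**
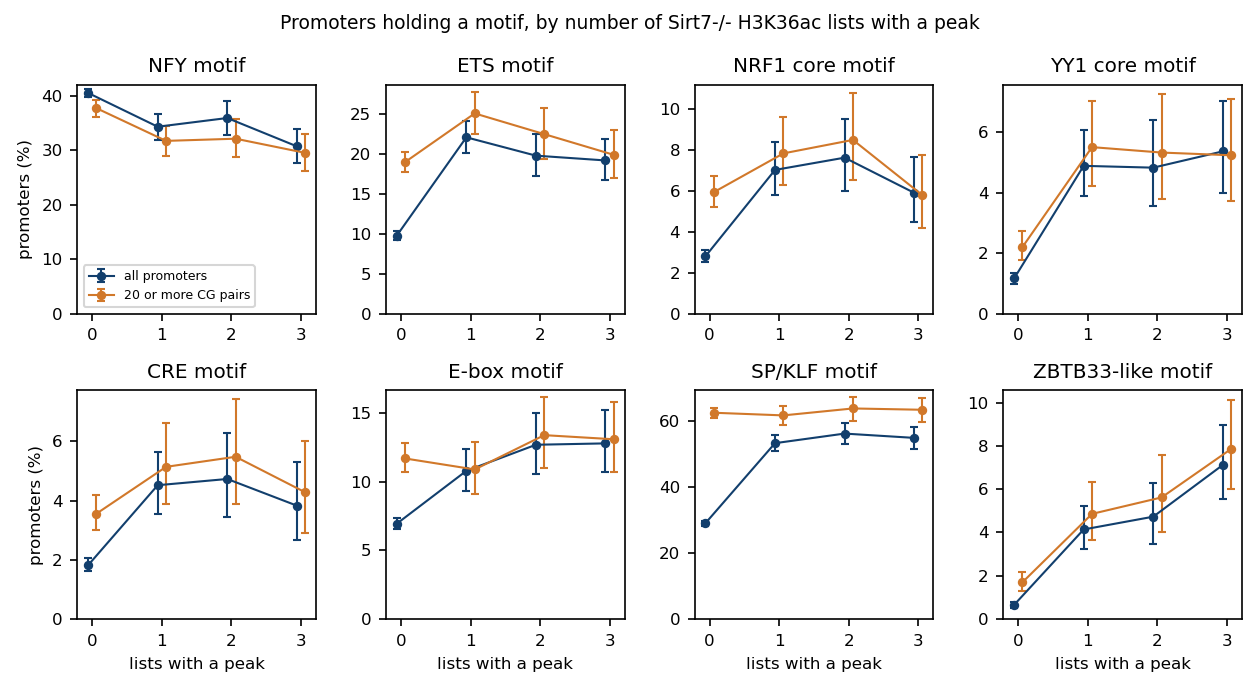
Share of promoters holding each of 8 motifs (y axis, percent) by the number of Sirt7-/- lists with a peak within 3000 bp (x axis), for all promoters (blue) and for those of at least 20 CG pairs (orange), with exact 95% binomial intervals. The ZBTB33-like share goes up with each class in both, from 0.655% to 7.12% in all promoters, while the SP/KLF share is even among the CG-rich ones.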

How the data were processed

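H3K36ac ChIP-seq and input libraries of 3 Sirt7-/- samples were considered, each from a different mouse. Per the labels and methods, the authors used Trim Galore 0.6.6 for trimming, Bowtie2 2.4.4.1 for alignment (mm10) and SAMtools 1.19.2 with Sambamba to keep unique, non-duplicated reads, and called broad peaks with MACS2 2.2.5 for each sample against its own input, with no pooling and no spike-in factor. The deposited lists give each peak's score (the whole part of 10 times the -log10 q, not used), its fold over input as a ratio, and the -log10 of p and q. These values rank peaks within a list, not between lists. Read numbers past these filters were not given in the sources used here, so depth cannot set the precision of a peak, and intervals cover counting error only.

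Gene starts were the 5′ ends of genes in the RefSeq table of GRCm38.p6. Strand came from the RefSeq promoter table and otherwise from GENCODE vM39 by name, which gave 21468 of 21887 protein-coding genes (98.1%) a strand. A peak within 3000 bp of a start was assigned to it. Overlapping peaks were merged. No difference was tested, since the 3 lists form 1 group and peaks are not replicates. Intervals are exact (Clopper-Pearson, 95%). Exons and introns were not used. The annotation, merging and overlap functions were tested on simulated regions. Members, functional lists and motifs were chosen with earlier results of these data known. Genes were named by a fixed rule: the first 12 gene starts by mean rank of -log10 q, the 8 widest regions, the highest folds and best unshared peaks of each list, up to 5 members of each functional list, all marker genes with a peak, Sirt7, Zbtb16 and Sumo2, and the 6 best regions with no gene start. Other genes were named after their values were seen. Some genes that the rule names are not reported here. Python 3.11.15, NumPy 2.4.6, pandas 2.3.3, SciPy 1.17.1 and matplotlib 3.10.9 were used. The alternatives tried were a minimum width, a stricter -log10 q, equal list lengths, other windows, merging and overlap rules, autosomes only, other rankings, added transcript starts, CG-rich promoters and each replicate left out.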

Additional observations from a re-analysis of the deposited data

How the results depend on the processing

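The count of coding starts called in all 3 lists, 1093, was 610 with a -log10 q of at least 2, 377 with peaks at least 500 bp wide and 187 where the peak had to cover the start. It stayed within 1.5 times with windows of 1000 and 5000 bp, equal list lengths, autosomes only and transcript starts added. The count of merged regions in all 3 lists, 1025, was 575, 349 and, with at least 50% of the merged width covered in every list, 461. With 1 replicate left out, 1351 to 1619 starts and 1262 to 1499 regions were in both lists left. Of 47 functional lists, 26 had a share in all 3 lists above that of all coding starts, and 24 to 26 did under the alternatives. Of the 32 lists with a member in all 3, the count stayed within 1.5 times in 13 with a -log10 q of at least 2 and in 26 with equal list lengths. The share of peaks near a start, 88.9%, was 82.9% with a window of 1000 bp, 91.0% with 5000 bp and 91.5% with a -log10 q of at least 2. The best 10% of the peaks recurred in 71.5% when ranked by fold and 70.1% by width, in place of 74.5%. Of the 8 widest regions, 3 were among the first 8 by the narrowest of 3 peaks. The median of CG pairs, 29.0, was 32.0 within promoters of at least 20 CG pairs by the construction of that class. The transcript starts and CG-rich promoters were alternatives chosen after seeing the data. No paired analysis was possible because no test was made and only 1 genotype was used. The lists hold no coverage, so a gene without a peak may lie just under the threshold.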

Other observations

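Genes with recurrent peaks were longer. The median length was 15646 bp for coding genes with no peak, 25005 bp with a peak in 1 list, 28568 bp in 2 and 30370 bp in all 3. The middle of the distribution was wide, with quartiles of 13079 and 66136 bp for genes in all 3 lists. Regions in all 3 lists held more than 1 coding start within 3000 bp in 16.2%, regions in 2 lists in 15.4% and regions in 1 list in 11.9%, while the median width of these regions was 957, 645 and 333 bp.

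The noncoding RNA Malat1, which lies next to Neat1 and is known from nuclear speckles, was the only one of 24 noncoding host genes called in all 3 lists, with ranks of 700, 112 and 742. That is 4.17% (0.105% to 21.1%) of the group, beside 1.45% of lncRNA starts. In at least 1 list the group stood at 29.2%, beside 5.77% of lncRNA starts. Over the 3 lists the Malat1 peaks lay between -1510 and -207 bp of the gene start. Gas5, Snhg8 and Snhg17, hosts of snoRNAs, were called in 2 lists along with Neat1.

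The 2 lowest folds of replicate 3, both 1.65, lay at or near Rn18s-rs5, a copy of ribosomal DNA on chromosome 17 (39846354 to 39848202, mm10). The peak at 39843933 to 39844247 lay outside that gene, with a -log10 q of 2.95. The peak at 39845166 to 39846710 overlapped it in part, with a -log10 q of 3.01. The lowest folds of replicates 2 and 4 were 2.78 and 2.88, and neither list had a peak there. Ribosomal DNA is a repeat of many copies, so reads there cannot be assigned to 1 copy.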
